A study of Mus musculus with 15 samples.

Results

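HSF1 occupancy was examined at 10 early response genes in mouse brown adipose tissue, the heat-producing fat that is switched on by cold. The genes were Klf2, Klf4, Klf6, Egr1, Egr2, Egr3, Myc, Btg1, Btg2 and Zfp36, 10 of 21887 protein-coding genes on the GRCm38 assembly. They were chosen by name, and a gene was counted as having a peak when a called HSF1 peak overlapped its span or the 5 kb on either side by at least 1 bp. Over 10 libraries this took in 58 of 54878 peaks, which fell into 18 separate regions. The libraries formed 5 groups of 2. Wild type mice were kept at room temperature or exposed to cold for 40 min or 4 h. A further wild type pair with 40 min of cold, called the second pair, and a TXNIP knockout pair with the same exposure completed the set. All groups shared fixation with 2 mM DSG for 25 min and 0.8% formaldehyde for 12 min, and HSF1 was precipitated with Cell Signaling antibody 4356. The sources used here do not give how the TXNIP knockout was made, nor the strain and age of the mice. The labels do not say whether the libraries of a group came from separate animals, or how the wild type pairs at 40 min were related.

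HSF1 is the main transcription factor of the heat shock response. On activation it forms trimers that bind heat shock elements, arrays of short inverted repeats, and drives chaperone genes. The genes described here belong mostly to a different, faster program. Immediate early genes are switched on within minutes of a stimulus without new protein synthesis, typically through serum response factor at CArG boxes and CREB at cAMP response elements, and in brown fat the cold stimulus arrives as noradrenaline and raises cAMP. Klf2, Klf4 and Klf6 encode Krüppel-like zinc finger factors, and Egr1, Egr2 and Egr3 encode early growth response zinc finger factors. Myc encodes a growth-promoting factor that works with Max. Btg1 and Btg2 encode antiproliferative proteins that recruit the deadenylases that shorten mRNA tails, and Zfp36 encodes tristetraprolin, which binds AU-rich mRNAs and promotes their decay.

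The 250 bases before the transcription start are shown for 4 of the genes. Called peaks of Zfp36, Btg1 and Btg2 overlapped this stretch in 4, 3 and 3 lists, though most of their summits lay outside it. Egr2 had no peak in any list. All sequences are from RefSeq on GRCm38.p6 and run 5′ to 3′ on the strand of the gene. Zfp36 is chr7:28379229-28379478 (minus), Btg1 is chr10:96616751-96617000 (plus), Btg2 is chr1:134079156-134079405 (minus), and Egr2 is chr10:67537620-67537869 (plus), 1 of 5 listed starts. Capitals mark the cAMP response core TGACG on either strand, or the full element TGACGTCA that contains it, and CArG boxes.
Zfp36: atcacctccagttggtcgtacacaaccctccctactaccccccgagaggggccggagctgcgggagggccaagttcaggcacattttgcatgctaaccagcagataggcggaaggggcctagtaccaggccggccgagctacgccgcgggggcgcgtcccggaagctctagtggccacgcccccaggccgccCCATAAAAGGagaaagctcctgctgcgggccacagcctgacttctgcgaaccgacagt
Btg1: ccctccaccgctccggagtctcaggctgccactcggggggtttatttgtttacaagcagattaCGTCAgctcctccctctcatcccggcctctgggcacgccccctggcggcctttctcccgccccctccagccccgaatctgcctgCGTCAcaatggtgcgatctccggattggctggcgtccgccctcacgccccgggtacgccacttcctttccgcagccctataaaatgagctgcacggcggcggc
Btg2: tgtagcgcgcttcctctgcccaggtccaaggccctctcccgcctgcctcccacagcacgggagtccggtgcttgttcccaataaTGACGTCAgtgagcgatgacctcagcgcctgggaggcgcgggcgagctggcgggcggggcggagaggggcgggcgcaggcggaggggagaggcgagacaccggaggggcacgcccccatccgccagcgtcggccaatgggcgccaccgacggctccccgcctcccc
Egr2: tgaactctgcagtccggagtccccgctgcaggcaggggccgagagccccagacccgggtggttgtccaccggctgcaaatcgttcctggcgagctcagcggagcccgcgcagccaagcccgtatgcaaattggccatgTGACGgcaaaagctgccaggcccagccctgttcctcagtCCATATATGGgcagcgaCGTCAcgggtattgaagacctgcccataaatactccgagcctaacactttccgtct

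The promoter table held 7 of the 10 genes, without Egr1, Egr3 and Myc, so the strand of those 3 was not used and distances to them were taken to the nearer end of the gene. None of the 7 had a heat shock element of 3 perfect units (GAA and TTC in turn, 2 bases apart, either strand) in the 250 bases, against 0.514% of the 27025 genes in the table, each gene being counted once over all its listed starts. The shorter element of 2 such units, in either order, occurred in 1 of the 7, Egr2, at a start other than the one printed, and in 14.5% of all genes. The cAMP response core TGACG was present in 5 of 7 (Klf2, Klf4, Egr2, Btg1 and Btg2) and in 19.8% of all genes. The full element TGACGTCA was present in Btg2, from 166 to 159 bases before the start, and in 1.77% of all genes. CArG boxes occurred in Egr2 and Zfp36, the latter from 58 to 49 bases before the start, and in 1.62% of all genes. The GC box GGGCGG was found in all 7 and in 35.4% of all genes. These matches describe the letters of the windows only. Genome sequence was not used here, and bases outside these windows, such as those under the strongest Zfp36, Egr1 and Btg1 peaks, were not searched.

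Without cold, both libraries had an HSF1 peak at 1 of the 10 genes, Zfp36. Zfp36 was also the only one with a peak in both libraries of the first 40 min pair, and at 4 h no gene had one. In the second wild type pair at 40 min, 7 genes had a peak in both libraries: Klf2, Klf4, Klf6, Egr1, Btg1, Btg2 and Zfp36. In the TXNIP knockout, 5 had one in both: Klf2, Egr1, Btg1, Btg2 and Zfp36. Egr2 and Egr3 had no peak in any library, and Myc had one in a single library. The grid of the strongest fold per gene and library shows this division between the time course, from room temperature over the first 40 min pair to 4 h, and the remaining 4 libraries.

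These counts have to be read against the whole gene set. A peak in both libraries was present at 2.95% of all protein-coding genes at room temperature, 4.97% for the first pair, 0.466% at 4 h, 26.6% for the second pair and 21.0% for the knockout. The spans of the 10 genes are short, with a median of 5159 bp against 17169 bp over all genes, and a short span gives less room for overlap. Single libraries held a peak at 1 and 1 of the genes at room temperature and 1 and 1 for the first pair. At 4 h the numbers were 0 and 0, with 8 and 7 for the second pair and 5 and 5 for the knockout. Over all genes the single-library shares were 3.25% and 4.3% at room temperature and 7.21% and 5.46% for the first pair. They were 0.493% and 1.27% at 4 h, 30.2% and 33.1% for the second pair and 25.0% and 26.0% for the knockout. The lists themselves differed widely in length. They held 919 and 1269 peaks at room temperature, 2287 and 1670 for the first pair, 123 and 351 at 4 h, 12644 and 14583 for the second pair, and 10399 and 10633 for the knockout. The number of genes with a peak moved with list length, and the part of list length in each difference was not tested.

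**Figure D1:**
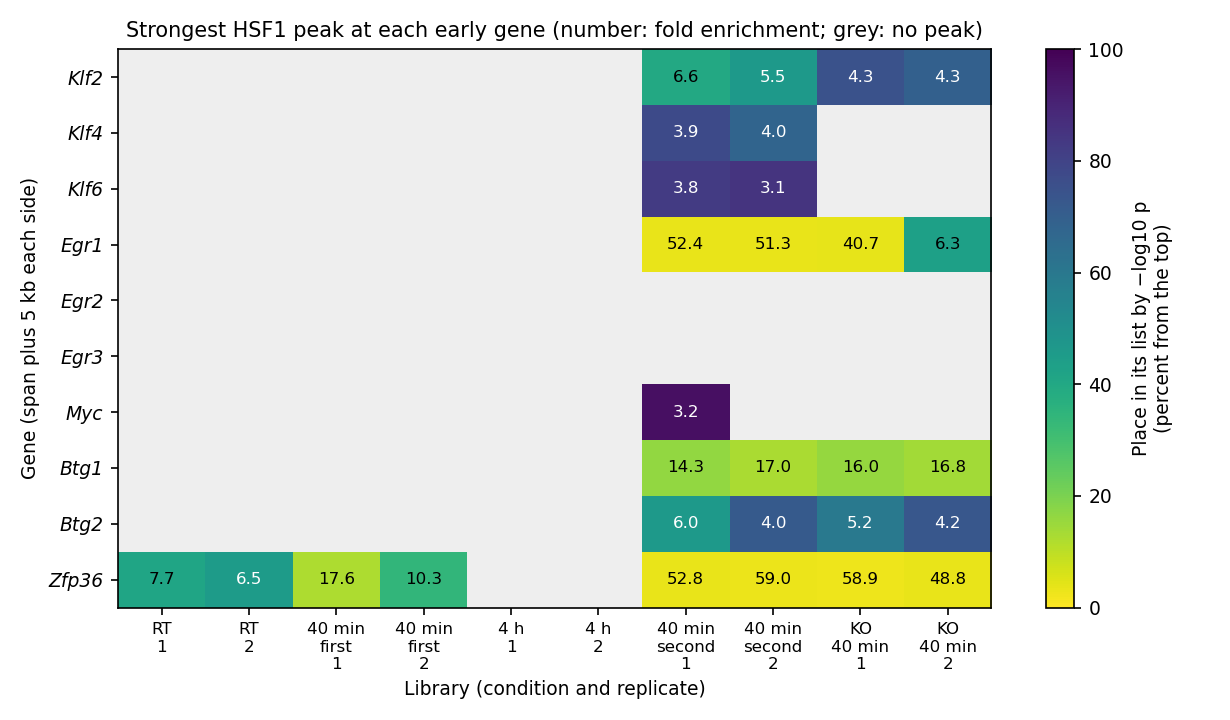
Strongest HSF1 peak at each of the 10 genes (rows) in each of the 10 libraries (columns, by group): the number is the authors' fold enrichment, the color is the place of the peak in its list by −log10 p (percent from the top), and grey cells had no peak overlapping the gene span plus 5 kb. Zfp36 is filled in 8 libraries, Egr2 and Egr3 in none, and the other genes only for the second pair or the knockout.

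Nearness to the transcription start gave smaller numbers. Summits within 1 kb of a start were found in both libraries at 3 genes for the second pair, Klf4, Btg1 and Zfp36, against 14.1% of all genes. In the knockout they were found at 2, Btg2 and Zfp36, against 9.85%. No gene of the 10 met this in the time course, where in the order room temperature, first pair and 4 h 1.18%, 1.73% and 0.247% of all genes did.

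Zfp36 (chromosome 7, 28376784 to 28379228, minus strand) had the strongest peak of the 10 windows in each list that held it. It lay past the far end of the gene, with summits 300 to 355 bp downstream, and all 8 summits fell within 55 bp of each other, from 28376429 to 28376484. The same peak lay upstream of the neighbouring gene Plekhg2 (start 28372662, minus strand) and within 5 kb of it, so both genes share it. The fold enrichment of this peak over local background, the authors' value at the summit, was 7.68 and 6.45 at room temperature and 17.6 and 10.3 for the first pair. Neither 4 h library had a peak there. In the second 40 min pair the fold was 52.8 and 59.0, and the knockout libraries had 58.9 and 48.8. The second pair and the knockout overlapped each other, and both stood above all time course libraries.

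Folds of different lists are not on a common scale, so the position of the same peak within its own list is also given. Ordered by −log10 p, the Zfp36 peak ranked 379 of 919 and 573 of 1269 at room temperature, 279 of 2287 and 573 of 1670 for the first pair, 434 of 12644 and 405 of 14583 for the second pair, and 278 of 10399 and 367 of 10633 for the knockout. The rank itself was of similar size in short and long lists, so its place in percent from the top, 41.2% and 45.2% at room temperature and 3.45% or less in the 4 long lists, moved with list length. Over all genes with a peak, the strongest peak of a gene stood at a median of 42.0% to 51.2% from the top, depending on the list. Measured against the strongest peak of its own list, its fold was 3.95% and 3.35% at room temperature, 4.41% and 3.14% for the first pair, 4.07% and 4.88% for the second pair, and 5.13% and 4.40% for the knockout. These shares had a highest-to-lowest ratio of 1.64, near the median ratio of 1.68 over the 616 genes with a peak in all of those 8 lists. Of 18 heat shock chaperone genes, 16 or 17 ranked above Zfp36 in each of the 8 lists.

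3 weaker regions around Zfp36 were called only for the second pair and the knockout. Inside the gene, summits from 28378871 to 28378881 lay 347 to 357 bp from the start, with folds of 10.7 and 11.4 for the second pair and 18.5 and 14.8 for the knockout. The knockout values were the higher ones here, and the groups did not overlap. Upstream, a region had folds of 5.14 and 6.17 for the second pair and 6.43 and 5.14 for the knockout. These values came from separate places. The summit of knockout library 1 was at 28381177, and the others lay from 28382142 to 28382274. Downstream, summits lay 50 to 181 bases before the start of the neighbouring gene Plekhg2, with folds of 8.16 and 12.3 for the second pair and 5.64 and 9.09 for the knockout. The stretch before the Plekhg2 start, chr7:28372663-28372912 (minus, GRCm38.p6, RefSeq), is shown because these summits fall within it, and the searched motifs that are marked by capitals had no match in it.
Plekhg2: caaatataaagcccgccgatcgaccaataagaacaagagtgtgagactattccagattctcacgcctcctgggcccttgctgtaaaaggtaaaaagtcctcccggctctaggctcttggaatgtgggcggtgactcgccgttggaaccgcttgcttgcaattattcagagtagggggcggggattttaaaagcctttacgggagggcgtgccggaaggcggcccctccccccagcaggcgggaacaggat

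**Figure D2:**
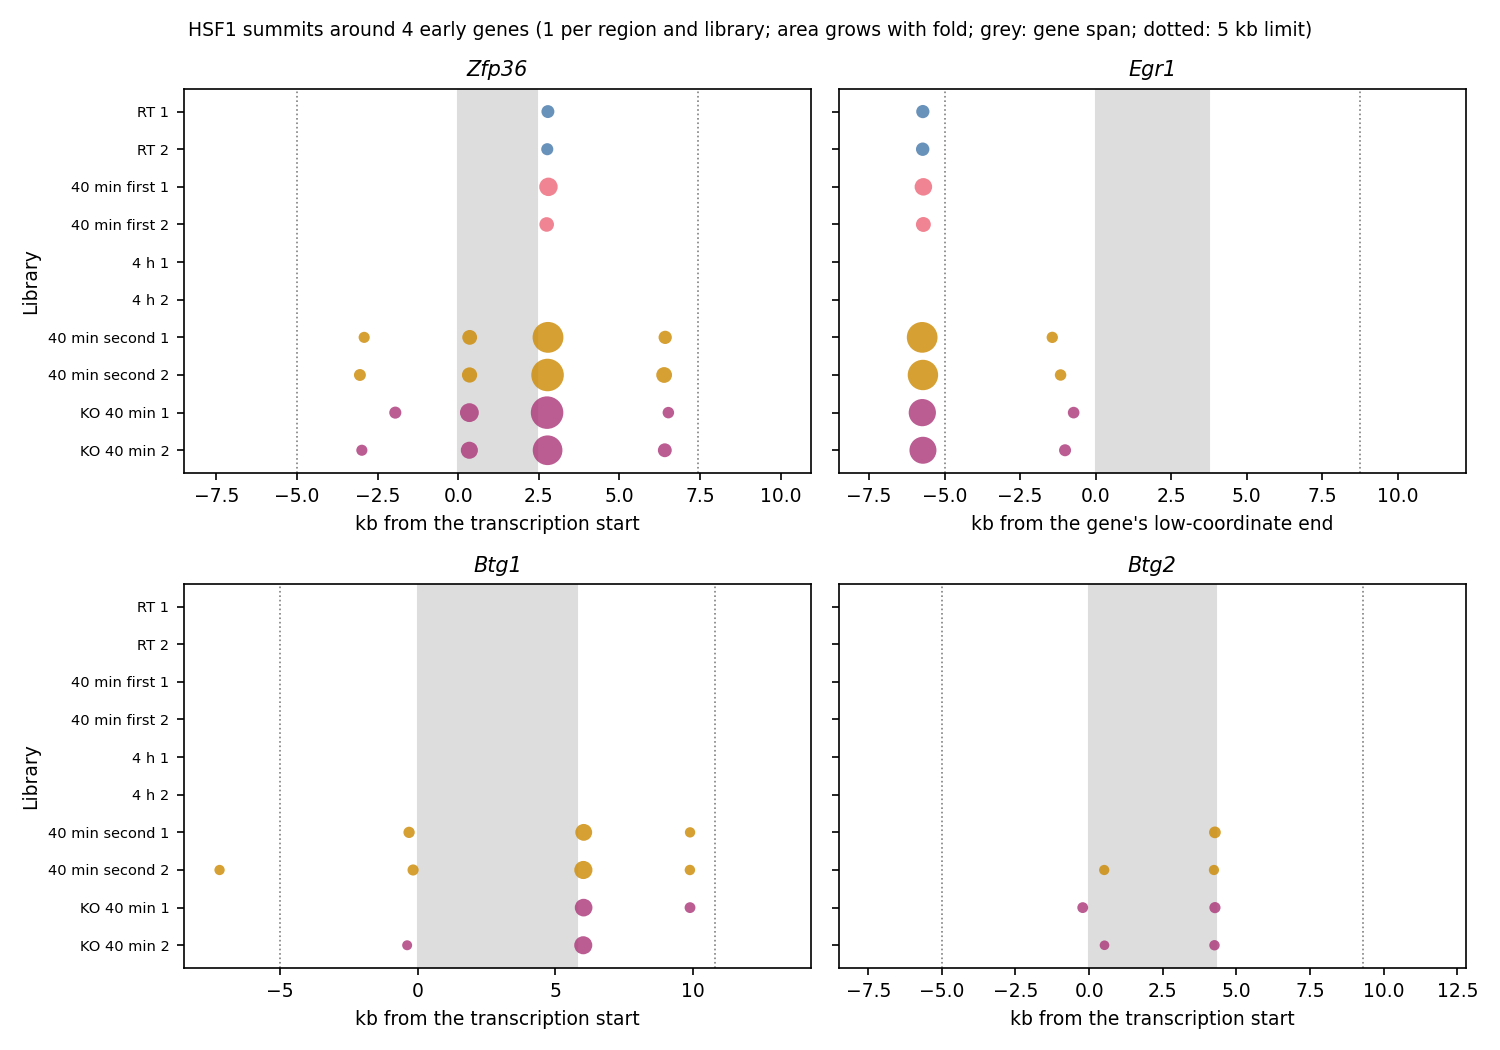
HSF1 summits around Zfp36, Egr1, Btg1 and Btg2, 1 row per library and 1 point per region, with distance in kb from the transcription start (for Egr1 from the low-coordinate end) on the horizontal axis, point area growing with the authors' fold, grey for the gene span and dotted lines for the 5 kb limit. The Zfp36 column downstream of the gene and the Egr1 column outside the limit are shared by 8 libraries, and all other points belong to the second pair and the knockout.

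Btg1 (chromosome 10, 96617001 to 96622813, plus strand) had no peak in the room temperature, first 40 min or 4 h lists. Its main peak in the other 4 lists lay 210 to 227 bp past the far end of the gene, with summits from 96623023 to 96623040. The fold was 14.3 and 16.98 for the second pair and 16.0 and 16.8 for the knockout, so the knockout values fell between the wild type values. Ranks were 2071 of 12644 and 1843 of 14583 for the second pair, and 1631 of 10399 and 1482 of 10633 for the knockout. A peak overlapping the printed promoter had folds of 5.38 and 5.15 for the second pair and 3.75 in knockout library 2 only. Its summit lay within the printed bases in second pair library 2, at 96616833. In second pair library 1 and knockout library 2 the summits lay farther upstream, at 96616688 and 96616618. Another region further downstream had folds of 4.18 and 4.29 for the second pair and 4.77 in knockout library 1.

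Btg2 (chromosome 1, 134074865 to 134079155, minus strand) also had its repeated peak at the far end of the gene, with summits from 134074885 to 134074919, just inside it. The fold was 5.96 and 4.05 for the second pair and 5.19 and 4.24 for the knockout, which overlap. A peak overlapping the printed promoter was called in second pair library 2, with a fold of 4.05, and in both knockout libraries, with folds of 4.77 and 3.36. Only the summit of knockout library 1, at 134079373, lay within the printed bases. In second pair library 2 and knockout library 2 the summits lay inside the gene, 511 and 521 bp from the start.

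**Figure D3:**
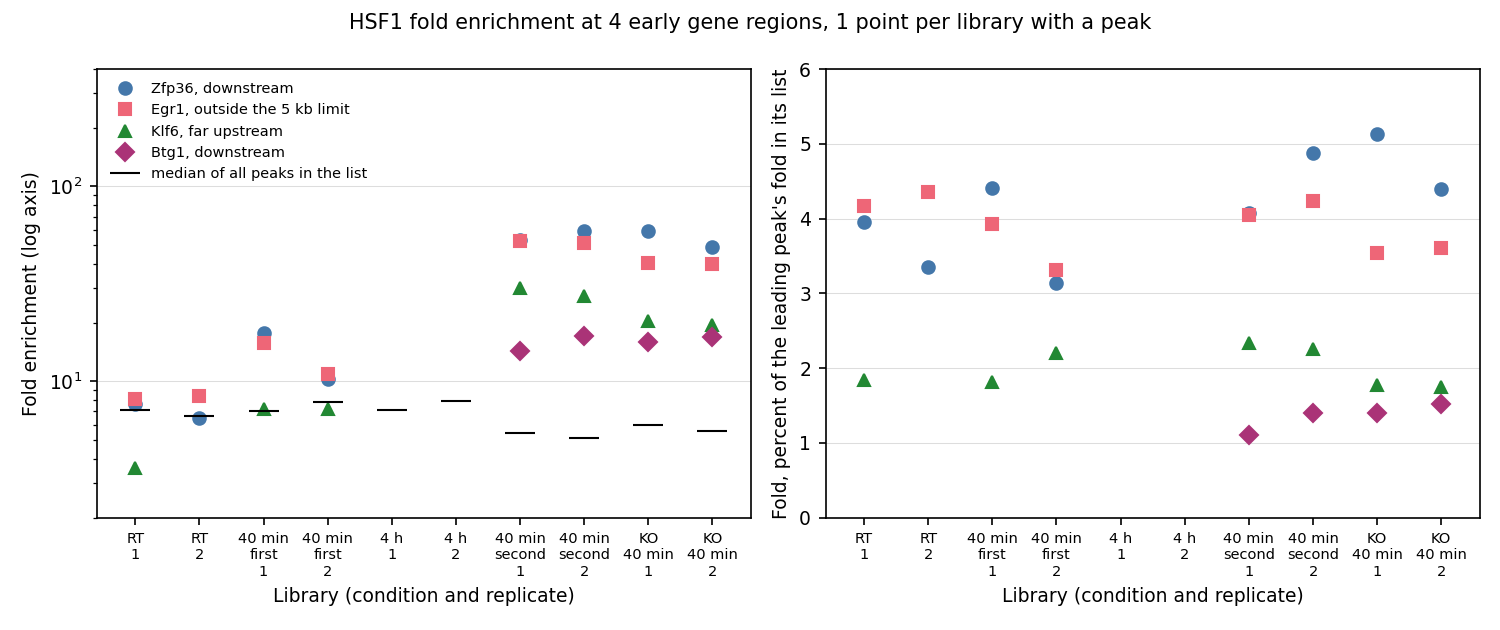
Authors' fold enrichment (left, log axis, with bars for the median of all peaks in the list) and the same fold as a percent of the leading peak's fold in its list (right) for 4 regions, 1 point per library; a missing point means that no peak was called. Zfp36 and the region outside the 5 kb limit of Egr1 hold values of 6.45 to 17.6 at room temperature and for the first pair and of 40.0 to 59.0 for the second pair and the knockout.

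Egr1 lies on chromosome 18, from 34861207 to 34864956. Its strongest region was up to 5740 bp outside the low-coordinate end of Egr1 and 4479 bp from the long noncoding RNA gene Gm41689. The summits of the region ran from 34855467 to 34855507, and no protein-coding gene was nearer than Egr1. The fold there was 8.11 and 8.40 at room temperature, 15.7 and 10.9 for the first pair, 52.4 and 51.3 for the second pair, and 40.7 and 40.0 for the knockout, with no peak at 4 h. By −log10 p it ranked 380 of 919 and 436 of 1269 at room temperature, 366 of 2287 and 520 of 1670 for the first pair, 438 of 12644 and 489 of 14583 for the second pair, and 380 of 10399 and 409 of 10633 for the knockout. These places are close to those of the Zfp36 peak. Knockout folds as deposited were below both second pair values and above all time course values, although folds of different lists are not on a common scale. Because the summit is past the 5 kb limit, the peak touched the window in only 3 lists, the second pair and knockout library 1, where it was wide enough. Egr1 was therefore counted as without a peak in the room temperature and first pair libraries. With a limit of 10 kb it was counted as having one in both of those groups. Relative to the strongest peak of each list, the fold of this region ranged from 3.31% to 4.36%, a ratio of 1.32. These shares were 4.17% and 4.36% at room temperature and 3.92% and 3.31% for the first pair. They were 4.04% and 4.24% for the second pair and 3.54% and 3.60% for the knockout. On that scale the knockout was below room temperature and the second pair, and between the first pair values.

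A second Egr1 region, nearer to the same end, had folds of 5.39 and 5.61 for the second pair and 5.81 and 6.32 for the knockout. It was not called in the time course. Egr2 had no peak in its window, and the nearest called one was a single knockout peak with a fold of 5.14 that lay 7209 bp away and 442 bp from Ado. For Egr3 the nearest calls were 20137 bp and 48707 bp away, both inside Pebp4, the farther one with folds of 9.56 and 8.58 for the second pair and 5.81 and 7.51 for the knockout.

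Among the Krüppel-like factors, peaks within 5 kb had folds of 6.57 or lower. Klf2 (chromosome 8, 72319062 to 72321654) had a downstream region with folds of 6.57 and 5.49 for the second pair and 4.30 in knockout library 1. In the second pair it stood at 39.7% and 45.9% from the top. The medians for the strongest peak of a gene in those lists were 44.5% and 42.3%. In knockout library 2 the call came from a different region, 41 bp before the start, with a fold of 4.35. The peak in both knockout libraries therefore rests on separate places. Klf4 (chromosome 4, 55527137 to 55532475) had a peak upstream of its start, inside the long noncoding RNA gene Gm12506, with folds of 3.94 and 3.98 for the second pair and no call elsewhere. It ranked 9781 of 12644 and 9873 of 14583, in the lower part of both lists. Klf6 (chromosome 13, 5861489 to 5870393) had a promoter peak of 3.08 in second pair library 2 and a peak of 3.78 past its far end in library 1, again at separate places.

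Further out, the Krüppel-like genes had stronger regions. Klf6 had one 15717 bp upstream, 9737 bp from the long noncoding RNA gene 1700016G22Rik, with 7 summits from 5845750 to 5845785. Its fold was 3.58 in room temperature library 1, where it ranked 911 of 919, with no call in library 2. Folds were 7.25 and 7.24 for the first pair, 30.3 and 27.3 for the second pair, and 20.3 and 19.4 for the knockout. Klf2 had a region 18445 bp upstream, 30 bp from the long noncoding RNA gene Gm40505, with folds of 5.80 in first pair library 1, 14.1 and 13.9 for the second pair, and 11.2 and 7.41 for the knockout. Other distal Klf2 regions had folds of 8.25 or lower. A region 30639 bp from Klf4 had folds of 4.50 and 5.60 for the second pair and 8.71 and 6.72 for the knockout. With a limit of 25 kb, a peak in both libraries was present at 2 of the 10 genes at room temperature (Egr1 and Zfp36), 3 for the first pair (with Klf6), 0 at 4 h, 7 for the second pair and 6 for the knockout. The shares over all genes at that limit were 5.27%, 8.85%, 0.868%, 39.1% and 32.4%. No peak of either 4 h library, with lists of 123 and 351 peaks, lay within 50 kb of any of the 10 genes. The share over all genes was not computed at 50 kb. At 25 kb the single 4 h libraries had a peak at 0.946% and 2.46% of all genes.

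Myc (chromosome 15, 61985341 to 61990361) had a single peak, in second pair library 1, with a summit inside the gene at 61987196. Its fold was 3.19 and it ranked 12102 of 12644, so it stood near the bottom of that list. A distant region inside the long noncoding RNA gene Pvt1 had folds of 4.58 and 5.32 for the second pair and 6.64 and 4.74 for the knockout. Its summits spread over 1049 bp, from 62038004 in knockout library 2 to 62039053 in knockout library 1. The latter summit lay 48692 bp from Myc.

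Between conditions, the time course changed the call of at most 1 gene. From room temperature to 40 min, no gene gained and none lost a peak in both libraries, against 1.1% and 0.0137% of all genes, and Zfp36 kept its peak. From room temperature to 4 h, Zfp36 lost it, where 1.87% of all genes lost and 0.00914% gained one. From 40 min to 4 h the change was again the loss at Zfp36, against 3.73% lost and 0.00457% gained over all genes. When each list was limited to its strongest 123 peaks, the length of the shortest 4 h list, Zfp36 had no peak in any group and neither loss was counted. These comparisons share libraries and are not independent. In the knockout against the second wild type pair, Klf4 and Klf6 lost their peaks and no gene gained one, against 2.81% lost and 0.302% gained. The wild type folds were 3.94 and 3.98 for Klf4 and 3.78 and 3.08 for Klf6, the latter at separate places. With the lists of both groups limited to their strongest 10399 peaks, 1 gene (Klf4) was lost.

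The wild type pairs at 40 min differed at more of the 10 genes than the genotypes did. From the first to the second pair, 6 genes gained a peak, Klf2, Klf4, Klf6, Egr1, Btg1 and Btg2, and none lost one, where 18.9% of all genes gained and 0.00457% lost one. With lists limited to their strongest 1670 peaks, 1 gene gained one, Egr1, whose peak was called beyond the 5 kb limit in the first pair as well. The mean number of genes with a peak was 1.0 for the first pair, 7.5 for the second and 5.0 for the knockout. An exact two-sided permutation test of the number of genes per library gave p = 0.333 (adjusted 0.417 over 5 comparisons) for 4 of the comparisons and p = 1 from room temperature to 40 min. With 2 libraries a group, 0.333 is the smallest p this test can give. With the first pair as wild type control, 4 genes gained a peak with the knockout and none lost one. The share over all genes was not computed for this comparison, and the knockout lists were much longer than those of the first pair. The direction of these counts therefore depended on the wild type pair used, and the part of list length was not tested. Since the labels do not say which pair was prepared with the knockout, preparation and genotype cannot be told apart.

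Peaks in the window of Txnip, which encodes the thioredoxin-binding protein targeted by the knockout, were called in 9 of 10 libraries, with none in room temperature library 1. The strongest had folds of 4.30 in room temperature library 2, 5.32 and 5.01 for the first pair, 4.06 and 8.21 at 4 h, 12.9 and 13.9 for the second pair, and 9.96 and 10.996 for the knockout. The strongest knockout summits, at 96557682 and 96557753, lay outside the gene span, which begins at 96557957 on chromosome 3. A peak beside the gene does not test the deletion, so the genotype label could not be checked here. Peak lists hold no expression values, and the tissue label was not checked against marker genes.

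Lists of genes with related roles are given by the number with a peak in both libraries, to be read beside the all-gene shares of 2.95% at room temperature, 4.97% for the first pair, 0.466% at 4 h, 26.6% for the second pair and 21.0% for the knockout. Of 18 other Krüppel-like and SP genes, a peak in both libraries was present at 1 at room temperature, 2 for the first pair, 0 at 4 h, 11 for the second pair and 9 for the knockout. Klf15, a metabolic regulator induced by glucocorticoids and fasting, was the one at room temperature, with folds of 10.7 and 10.7, then 19.1 and 16.4 for the first pair, 72.7 and 87.1 for the second pair, and 67.6 and 68.7 for the knockout. Of 8 EGR partners, which include the corepressors Nab1 and Nab2, the count was 0 in each time course group, 3 for the second pair and 2 for the knockout. Of 13 MYC network genes the count was 8 for the second pair, 8 for the knockout 2 (Mlx and Mga) for the first pair and 0 at room temperature and 4 h. Of 13 BTG/TOB and deadenylation genes, the count was 1 (Tob2) at room temperature, 1 (Btg3) for the first pair, 0 at 4 h, 9 for the second pair and 5 for the knockout. Of 6 genes of the Zfp36 family and other AU-rich binding proteins, the count was 1 (Zfp36l1) for the first pair, 3 for the second pair and 3 for the knockout, with 0 at room temperature and 4 h.

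Among 26 other immediate early genes, a peak in both libraries was present at 2 at room temperature (Jun and Nfil3), 6 for the first pair (adding Ier2, Nr4a2, Gadd45g and Crem), 0 at 4 h, 22 for the second pair and 21 for the knockout. The number with no peak in either library was 22 at room temperature, 17 for the first pair and 25 at 4 h. Jun, a subunit of AP-1, had folds of 24.1 and 16.2 at room temperature, 21.7 and 23.4 for the first pair, 88.4 and 101 for the second pair, and 92.9 and 84.2 for the knockout. Gadd45g, a stress and DNA damage gene, had none at room temperature and folds of 12.8 and 10.6 for the first pair, 31.5 and 40.1 for the second and 34.4 and 33.8 for the knockout. The 18 chaperone genes had peaks in both libraries at 17, 17, 14, 18 and 18 in the order of the groups above, with median folds of 97.5 and 96.7 at room temperature and 17.9 and 26.0 at 4 h. Zfp36, with 7.68 and 6.45 at room temperature, stood well below the chaperone medians of those libraries.

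**Figure D4:**
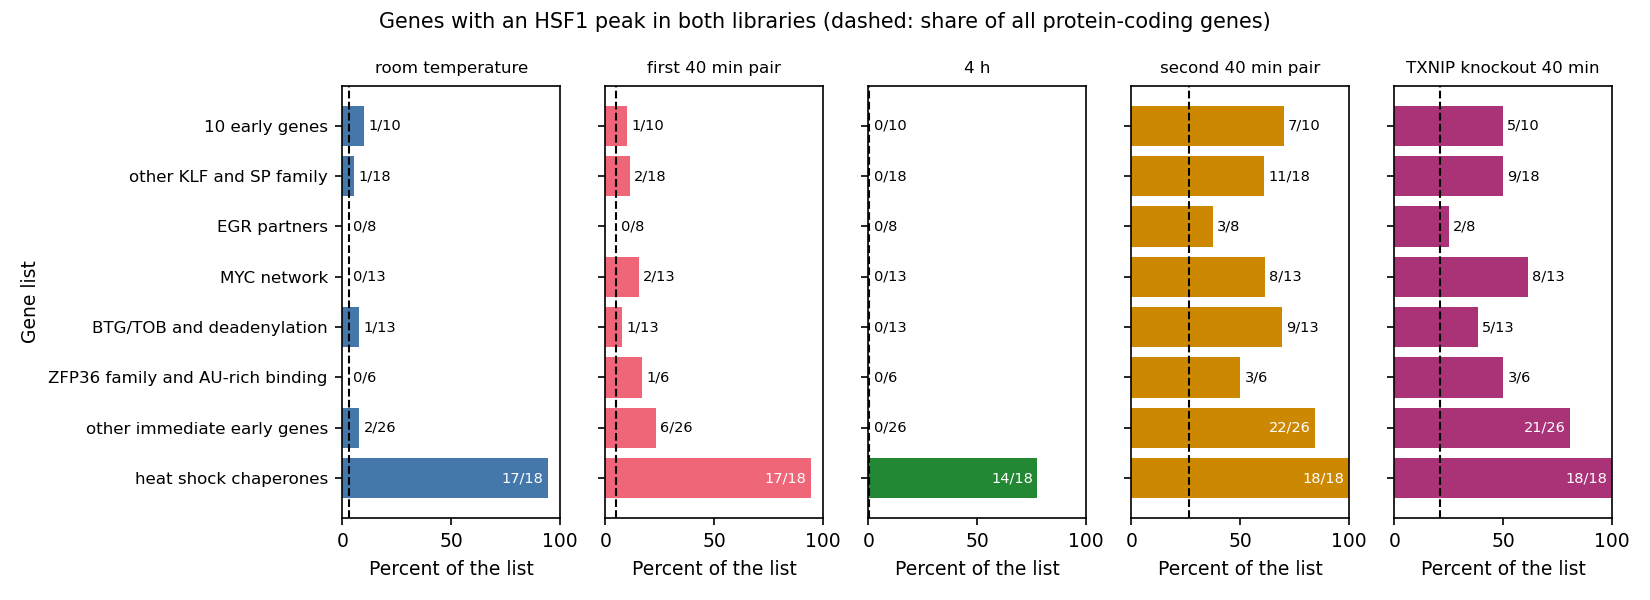
Share of each gene list (percent, horizontal axis) with an HSF1 peak in both libraries of a group, with the count beside each bar; the dashed line is the share over all 21887 genes. The 10 early genes sit at 1 of 10, 1 of 10, 0 of 10, 7 of 10 and 5 of 10, and the chaperones are at 14 of 18 or more in every group.

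Likeness was taken among genes with a peak in the same lists and in no other list. They were ordered by the mean absolute difference in rank percentile from each early gene. For Zfp36, 381 other genes had peaks in the same 8 lists and in neither 4 h list. The nearest were Plekhg2, which shares its peak, then Ift140 at 2.62 percentage points and Cct2, a chaperonin subunit, at 2.87. For Btg1, among 2556 genes with peaks in the same 4 lists, the nearest were Olfr1362, Gga3 and Mrps7, at 0.454, 0.649 and 0.649. Klf2 was nearest to Shbg, Dll4 and Kansl3, at 2.32, 2.94 and 3.09. Egr1 was nearest to Bysl, 1700001K19Rik and Fign, at 9.26, 10.1 and 11.1, a pattern set by the 5 kb limit, which left only its weaker peak in knockout library 2. Genes of a list share its library and its length, so these distances are descriptions only.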

How the data were processed

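HSF1 ChIP-seq peak lists of 10 libraries were analysed; 5 input libraries were not analysed here, and the label of 1 of them gave conflicting conditions. The submitters' processing notes name MACS2 2.2.7.1, BWA 0.7.17, deepTools 3.4.3, Trim Galore 0.6.0 and SAMtools, with build GRCm38.p6. The authors deposited narrow peaks called on each library separately. The deposited lists hold the fold enrichment of a peak, a linear ratio over local background, and the −log10 of its p-value and q-value; the deposited integer score was not used. Read depth is unknown, and which input served each library is not given in the sources used here.

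With Python 3.11.15, pandas 2.3.3 and numpy 2.4.6, peaks on the 19 autosomes, X and Y were overlapped (1 bp) with gene spans of GRCm38 extended by 5 kb, positions being 1-based. Overlapping peaks of different libraries were merged into regions. Peaks were ranked within a list by −log10 p. Gained and lost mean a peak in both libraries of a group and in neither of the other. Starts came from a RefSeq promoter table; where it lacked a gene, distance to the nearer gene end replaced the planned distance to the start. Other lists held 135 symbols in 11 groups, all matched. The overlap code was tested on simulated peaks. All 10 genes were named, with the 3 nearest genes by rank pattern for 4 of them; ties of 4 lists were taken in an order chosen after seeing the values. The genes and lists were chosen with earlier results of these data known. Where labels do not give separate animals, p-values measure only the spread between libraries.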

Additional observations from a re-analysis of the deposited data

How the results depend on the processing

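Counts of genes with a peak followed the window, the threshold and the list length. Of the recomputed counts, 194 stayed within 1.5 times the reported value and 76 did not. A count of 0 that stayed 0 was scored as staying. Many of the 194 are of that kind, such as all counts at 4 h and all gains from room temperature to 40 min. The 194 is therefore not a measure of how stable the other counts were. The difference in the mean number of genes with a peak cannot pass the threshold in a design of this size, and its size moved: at equal list length it was 1.0 in place of 6.5 between the wild type pairs, -0.5 in place of -2.5 for the knockout against the second pair and 0.0 in place of -1.0 for both 4 h comparisons, and at −log10 q of at least 5 the knockout value was -1.0. With no flank, a peak in both libraries was present at 0, 0, 0, 3 and 3 genes (room temperature, first pair, 4 h, second pair, knockout), and single libraries had 0 in the first 2 groups, 5 and 4 for the second pair and 3 in knockout library 1. With 10 kb both-library counts were 2 at room temperature and for the first pair, with 2 in each of their libraries. With 25 kb they were 2 and 3, with 3 and 2 in the room temperature libraries and 4 and 3 for the first pair. With summits within 1 kb of the start they were 0, 0, 0, 3 and 2, with 0 in each library of the first 2 groups, 3 in second pair library 1 and 3 in knockout library 1. With −log10 q of at least 10 they were 4 for the second pair (5 and 4 by library) and 3 for the knockout (3 and 3). With each list limited to its strongest 123 peaks, no gene had a peak in any group or library. Losses from room temperature to 4 h and from 40 min to 4 h were 0 and 0 with no flank, near the start or at equal list length, 2 and 2 at 10 kb, and 2 and 3 at 25 kb. Losses for the knockout were 0 with no flank or against the first pair. They were 1 at 25 kb, at −log10 q of at least 5 or 10, near the start or at equal list length. Against the first pair 4 genes gained a peak, and the share over all genes was not computed. Gains from the first to the second pair were 3 with no flank, at 25 kb, at −log10 q of at least 10 and near the start, and 1 at equal list length. Extending to 50 kb, added after seeing the data like the 25 kb limit, gave 40 regions in place of 18. Allowing 1 mismatch gave 1 gene (Egr2) with a 3-unit heat shock element, against 6.86% of all genes. Ranking by fold moved the 29 rank percentiles by a median of 0.862 and at most 9.69 percentage points. The labels number replicates 1 and 2 in every group but do not say that the numbers pair libraries; with the replicate block the exact permutation p was 0.5, the smallest it allows, for 4 comparisons and 1 from room temperature to 40 min.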

Other observations

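Markers of endothelium, brown adipocytes, leukocytes and skeletal muscle were examined in the same way, by the number with a peak in both libraries. Over all genes that share was 2.95% at room temperature, 4.97% for the first pair, 0.466% at 4 h, 26.6% for the second pair and 21.0% for the knockout. Of 8 endothelial markers, the same 2 had a peak in both libraries of the room temperature group and of the first pair, Pecam1 and Tie1, and the count was 0 at 4 h, 3 for the second pair and 3 for the knockout. Tie1, an endothelial receptor kinase, had folds of 12.6 and 13.7 at room temperature, 13.5 and 20.6 for the first pair, 72.3 and 73.1 for the second pair, and 52.5 and 47.8 for the knockout. Of 9 brown adipocyte markers, 1 had a peak in both libraries of the room temperature group and of the first pair, Ppargc1a, the coactivator of mitochondrial biogenesis, and the counts for 4 h, the second pair and the knockout were 0, 6 and 5. Ppargc1a folds were 5.96 and 7.62 at room temperature, 15.2 and 21.7 for the first pair, 69.7 and 72.9 for the second pair, and 56.2 and 65.0 for the knockout. None of 8 leukocyte markers had a peak in both libraries of any group. Skeletal muscle markers had one at 2 of 8 genes for the second pair and at none elsewhere. Peak lists do not measure which cells a peak comes from, and the part of each cell type was not tested.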
